A study of Homo sapiens with 24 samples.

Results

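The heat shock chaperone genes were followed across HCT116 cells, a human colorectal cancer line, and HCT116 oxpl-R cells, which were derived from them by repeated pulses of oxaliplatin. The group was fixed by gene symbol as HSPA1A, HSPA1B, HSPA8, DNAJB1, HSPH1, HSP90AA1, HSPB1, BAG3, HSPD1 and HSPE1, and all 10 genes were among the 33113 genes of the count table. The rule used gene symbols, and the genes were proposed with earlier results of these data known. RNA was sequenced in 8 groups of 3 biological replicates each, 24 samples in all. Each line was left untreated, was treated with 25 µM oxaliplatin for 24 h, was given 0.5 µg/mL doxycycline to induce an adenovirus E1A transgene (the E1A groups), or received doxycycline 3 h before oxaliplatin (the E1A + oxaliplatin groups). Both lines carried the TetOn-E1A transgene, the control groups included, so the E1A groups differ from their references by E1A and by doxycycline itself, which cannot be told apart here. HCT116 oxpl-R is 1 derived line, and a difference between the lines is a difference between these 2 cultures.

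Heat shock proteins are molecular chaperones, which bind unfolded or newly made proteins and help them to fold, and most of them are induced when proteins unfold. Heat shock factor 1 (HSF1) drives their transcription from heat shock elements, which are inverted repeats of GAA. Among the genes followed, HSPA1A and HSPA1B encode the inducible HSP70 and HSPA8 encodes its constitutive form HSC70, while DNAJB1 (an HSP40), HSPH1 (HSP110) and BAG3 are co-chaperones that act on HSP70. HSP90AA1 encodes the inducible HSP90, HSPB1 the small heat shock protein HSP27, and HSPD1 and HSPE1 the chaperonin HSP60 and its partner HSP10 of mitochondria.

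The promoters of these genes are shown first, since heat shock elements and the near-identity of HSPA1A and HSPA1B bear on how the values can be read. The sequences are from RefSeq on GRCh38.p14 and cover the 150 bases before a start site, 5′ to 3′. Capitals mark whole matches, on either strand, to GAANNTTC or TTCNNGAA, which are inverted pairs of GAA units that can overlap each other, to CCAAT and to TATAAA. The stretches shown are those of HSPA1A (chr6:31815393-31815542, plus strand), HSPA1B (chr6:31827588-31827737, plus strand), HSPA8 (chr11:123062137-123062286, minus strand), the second listed start of HSP90AA1 (chr14:102087045-102087194, minus strand), the second listed start of DNAJB1 (chr19:14518398-14518547, minus strand) and HSPB1 (chr7:76302523-76302672, plus strand).
HSPA1A: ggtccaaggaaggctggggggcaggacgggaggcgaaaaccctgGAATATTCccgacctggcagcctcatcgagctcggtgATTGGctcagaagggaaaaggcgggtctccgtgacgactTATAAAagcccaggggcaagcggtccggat
HSPA1B: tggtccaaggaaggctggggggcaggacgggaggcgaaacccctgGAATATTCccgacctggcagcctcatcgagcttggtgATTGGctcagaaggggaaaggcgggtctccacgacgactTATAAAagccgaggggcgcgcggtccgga
HSPA8: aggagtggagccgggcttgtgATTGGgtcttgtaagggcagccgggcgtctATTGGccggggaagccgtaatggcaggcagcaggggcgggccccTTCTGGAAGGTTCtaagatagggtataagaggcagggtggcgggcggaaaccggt
HSP90AA1: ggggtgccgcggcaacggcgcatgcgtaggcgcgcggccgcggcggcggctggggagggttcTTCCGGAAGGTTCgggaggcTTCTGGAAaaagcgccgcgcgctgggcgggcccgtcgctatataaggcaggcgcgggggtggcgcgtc
DNAJB1: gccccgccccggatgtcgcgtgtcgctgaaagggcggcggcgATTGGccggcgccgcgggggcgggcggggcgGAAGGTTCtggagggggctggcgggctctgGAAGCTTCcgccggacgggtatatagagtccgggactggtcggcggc
HSPB1: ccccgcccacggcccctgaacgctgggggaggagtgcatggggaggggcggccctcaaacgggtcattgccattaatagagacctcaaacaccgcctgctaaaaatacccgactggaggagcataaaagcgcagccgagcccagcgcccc

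Over the RefSeq promoter windows, which run from 250 bases before to 50 bases after a start, 8 of the 14 windows of the 10 genes held GAANNTTC or TTCNNGAA, against 13.5% of all 35116 windows. These 8 windows belonged to 7 genes, and those of BAG3, HSPE1 and HSPH1 held neither pattern. HSPA1A and HSPA1B had GAANNTTC at 106 and 105 bases before the start, and HSPB1 had it at 182 bases, outside the stretch shown. The stretches of HSPA1A and HSPA1B aligned with 141 identical positions, 8 mismatches and 2 gaps. HSPD1 and HSPE1 lie head to head on chromosome 2 and their windows overlap. A match is a property of the letters alone, and binding was not measured.

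HSPA1A (chr6:31815543-31817946) and HSPA1B (chr6:31827738-31830254) are adjacent copies on the plus strand, with GENCODE 44 positions on GRCh38 as for all genes here. Their coding sequences of 1923 bases differ at 4 positions, and 76.9% of the stretches of 31 bases in the HSPA1A transcript also occur in HSPA1B. The authors' quantification gave HSPA1A between 1.36% and 3.63% of the summed counts of the pair (median 2.07%). How reads were split between the copies is uncertain, so the sum of both is given as the main value.

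Read depth was similar across samples, with 24838095 to 37927720 counts per sample in the table used. Ad5-E1A RNA was at 4.07 to 11.7 CPM (counts scaled to a common library size) in the 12 samples without doxycycline and at 199 to 831 CPM in the 12 with it, and within the latter it was lowest in replicate 1 of HCT116 E1A + oxaliplatin. All 5 epithelial markers (EPCAM, KRT8, KRT18, KRT19, CDH1) were detected in every sample and summed to 5123 to 16323 CPM, while the leukocyte markers summed to at most 6.64 CPM, the endothelial markers to at most 0.912 CPM and the fibroblast markers to at most 53.7 CPM, with DCN and LUM at 0 in 17 and 18 samples. Genes of the mitochondrial genome took up to 19.7% of the counts (median 14.5%) and only 1.38% in replicate 1 of HCT116 oxpl-R oxaliplatin. The samples are labelled as biological replicates, and no further source says how they were grown apart. In bulk RNA, fewer cells with a transcript and less of it per cell cannot be told apart.

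E1A induction was accompanied by a rise of HSPA1A + HSPA1B in both lines, with and without oxaliplatin. In HCT116 the sum was 306, 308 and 415 CPM in the control samples and 1128, 1241 and 1199 CPM in the E1A samples. All E1A samples were above all controls, and the sum was 3.37-fold higher (log2 fold change 1.75, SE 0.11, edgeR adjusted p = 4.57e-10). In HCT116 oxpl-R it was 223, 235 and 197 CPM in the controls and 838, 576 and 659 CPM with E1A, again without overlap, and 3.16-fold higher (log2 fold change 1.66, SE 0.17, edgeR adjusted p = 0.00641). HSPA1B alone gave log2 fold changes of 1.75 in HCT116 and 1.66 in HCT116 oxpl-R. HSPA1A alone rose by 2.07 on the log2 scale in HCT116, from a mean of 5.57 to 24.1 CPM. In HCT116 oxpl-R its means were 4.45 and 15.6 CPM, without overlap, but the difference did not pass the test (log2 fold change 1.80, SE 0.37, edgeR adjusted p = 0.269). It was called with DESeq2 (adjusted p = 0.00322) and by edgeR with all 24 samples in 1 fit (0.0347) or without HCT116 oxpl-R E1A replicate 3 (0.0421). No other alternative that fitted HSPA1A alone called it.

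The same held on top of oxaliplatin. In HCT116 the sum of HSPA1A and HSPA1B was 297, 311 and 328 CPM with oxaliplatin and 914, 819 and 799 CPM with E1A + oxaliplatin. The 2 groups did not overlap, and the sum was 2.69-fold higher (log2 fold change 1.43, SE 0.16, edgeR adjusted p = 0.0159). In HCT116 oxpl-R it was 288, 144 and 126 CPM with oxaliplatin and 734, 651 and 631 CPM with both, 3.66-fold higher (log2 fold change 1.87, SE 0.27, edgeR adjusted p = 0.00125). Replicate 1 of HCT116 oxpl-R oxaliplatin, the library with the low mitochondrial share, had the highest level of its group, and without it the log2 fold change of HSPA1B there was 2.28. Replicate 1 of HCT116 E1A + oxaliplatin had the lowest E1A RNA of the induced samples and the highest HSPA1A + HSPA1B of its group. Over expressed genes, deviations from group means in that library rose by 0.256 on the log2 scale per 10 percentage points of GC, the highest such slope. In replicate 1 of HCT116 oxpl-R oxaliplatin the slope was 0.250. HSPA1A and HSPA1B have 59.8% and 58.8% GC, and the part of base composition in their levels there was not tested.

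**Figure D1:**
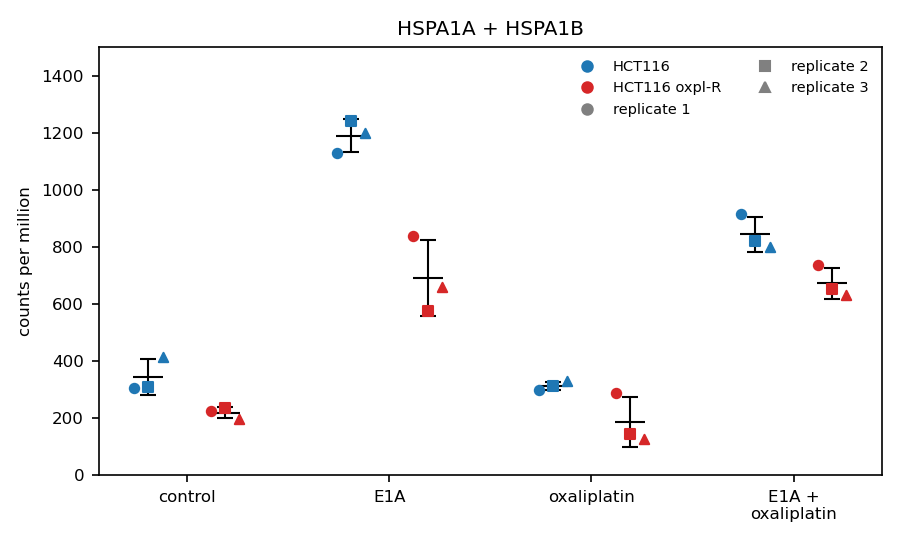
Summed CPM of HSPA1A and HSPA1B in each sample (points, shaped by replicate number, coloured by line) for the 4 treatments, with the group mean and SD (n = 3) as bars. The 12 samples with doxycycline lie between 576 and 1241 CPM, and the 12 without it between 126 and 415 CPM.

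The HSPA1 response stood among few called genes in 3 of the 4 E1A comparisons. With E1A, 9.5% of 16416 genes tested were called in HCT116, 0.0755% of 17212 in HCT116 oxpl-R, 0.0246% of 16259 on top of oxaliplatin in HCT116 and 0.638% of 16773 on top of oxaliplatin in HCT116 oxpl-R. In each of the last 3, HSPA1B was the 1 member called. By p-value HSPA1B ranked at place 7, 5, 4 and 15 in these comparisons. On top of oxaliplatin in HCT116 the called genes were Ad5-E1A, HSPA1B and the immediate early transcription factor genes EGR1 (log2 fold change 1.65) and JUNB (1.46). That call of HSPA1B is the least stable of the 4: its log2 fold change stayed between 1.36 and 1.47 under all alternatives, but its adjusted p was 0.521 with a replicate block, under which no gene was called, and it was not called without HCT116 oxaliplatin replicates 1, 2 or 3 (adjusted p = 0.13, 0.154 and 0.102) or without HCT116 E1A + oxaliplatin replicates 2 or 3 (0.0593 and 0.095). In HCT116 oxpl-R without oxaliplatin, HSPA1B was not called without control replicate 1 (log2 fold change 1.66, adjusted p = 0.0789).

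The response of HSPA1A + HSPA1B to E1A did not differ detectably between the lines. The interaction of line and E1A was -0.12 on the log2 scale (SE 0.22, edgeR adjusted p = 1), and no member passed this test, with 0 also at an unadjusted p under 0.05 and 0 with DESeq2. In that test 0.0164% of 18264 genes were called, so little could be seen at this spread. Ordered by mean, the sum was 1189 ± 56.9 CPM (SD, n = 3) in HCT116 E1A, 844 ± 61.2 in HCT116 E1A + oxaliplatin, 691 ± 134 in HCT116 oxpl-R E1A, 672 ± 55.0 in HCT116 oxpl-R E1A + oxaliplatin, 343 ± 62.5 in HCT116 control, 312 ± 15.4 in HCT116 oxaliplatin, 219 ± 19.3 in HCT116 oxpl-R control and 186 ± 88.7 in HCT116 oxpl-R oxaliplatin. Neighbours in this order overlapped in their samples between places 2 and 3, 3 and 4, 5 and 6, and 7 and 8, and no others did.

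The 5 genes most like HSPA1A + HSPA1B over the 24 samples were BRD2, EGR1, EGR3, GFI1 and JUNB, with Pearson r of log2(CPM + 1) of 0.97, 0.92, 0.90, 0.90 and 0.88 among 9505 genes. The 24 points share libraries and treatments, so these are descriptions of likeness. BRD2, a bromodomain protein gene, rose with E1A by 1.20 on the log2 scale in HCT116 and by 1.17 in HCT116 oxpl-R, and JUNB by 2.28 and 1.88. None of the other 8 chaperone genes was near this pattern. Their r ranged from -0.34 for HSPA8 to 0.24 for HSPB1.

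In HCT116, 3 of the other chaperone genes fell with E1A, while the co-chaperones did not pass the test. In this comparison 2.91% of genes tested were called higher and 6.59% lower, and of the 10 members 2 (HSPA1A and HSPA1B) were higher and 3 lower. Of the 9506 expressed genes 15.6% were called. HSPA8 (chr11:123057489-123063230, minus strand) was at 2019, 1951 and 1628 CPM in the controls and at 925, 888 and 1354 CPM with E1A, a fall of 0.86 on the log2 scale (SE 0.14, edgeR adjusted p = 0.000677). HSPD1 (chr2:197486584-197516737, minus strand) fell by 0.82 on the log2 scale (SE 0.14, edgeR adjusted p = 0.000701) and HSP90AA1 (chr14:102080742-102139699, minus strand) by 0.77 (SE 0.16, edgeR adjusted p = 0.00326). DNAJB1, BAG3, HSPH1, HSPB1 and HSPE1 had log2 fold changes between -0.26 and 0.14 that did not pass. The falls of HSPA8, HSPD1 and HSP90AA1 were not called when all 24 samples shared 1 estimate of the spread (adjusted p = 0.741, 0.8 and 0.894) or with a replicate block (0.0733, 0.0797 and 0.111), whereas HSPA1A and HSPA1B were called in both. HSP90AA1 was also not called without HCT116 control replicate 1 (0.0526). In HCT116 oxpl-R, none of the 3 was called with E1A, and their levels overlapped between the groups.

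With oxaliplatin the inducible HSP70 genes did not pass the test in either line, and HSPA8, HSPD1, HSP90AA1 and HSPH1 fell in HCT116 while HSPB1 rose. The sum of HSPA1A and HSPA1B gave a log2 fold change of -0.06 (SE 0.15, adjusted p = 0.791) in HCT116 and of -0.22 (SE 0.28, adjusted p = 0.701) in HCT116 oxpl-R. In HCT116 oxpl-R, 1 of 16 alternatives called HSPA1B, as lower. It left out oxaliplatin replicate 1, the library with the low mitochondrial share (log2 fold change -0.70, edgeR adjusted p = 0.028). In HCT116, where 23.3% of 16135 genes were called, 13.1% higher and 10.2% lower, 5 of 10 members were called, 1 higher and 4 lower. The members' median log2 fold change was -0.20, against 0.02 over all genes tested and -0.05 over the 9505 expressed ones, of which 37.2% were called. Mitochondrial genome transcripts took 11.7% to 14.9% of the counts in the 3 control samples and 17.1% to 19.5% in the 3 treated ones, and the epithelial markers summed to 6141 to 6947 CPM and to 10674 to 12318 CPM. Both moved without overlap, and their part in the members' differences was not tested.

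HSPA8 showed the largest fall of the 10 genes. It was at 2019, 1951 and 1628 CPM in untreated HCT116 and at 376, 530 and 561 CPM with oxaliplatin, 3.62-fold lower without overlap (log2 fold change -1.86, SE 0.18, edgeR adjusted p = 0.000467). HSPD1 was at 1418, 1451 and 1050 CPM and then at 317, 518 and 558 CPM, 2.67-fold lower (log2 fold change -1.42, SE 0.22, edgeR adjusted p = 0.00256). HSP90AA1 fell 2.24-fold, from 1743, 1815 and 1276 CPM to 370, 679 and 1000 CPM (log2 fold change -1.16, SE 0.31, edgeR adjusted p = 0.0231). Its treated samples differed by 2.70-fold among themselves and all lay below the controls.

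HSPH1 and HSPB1 moved in opposite directions. HSPH1 (chr13:31134973-31162388, minus strand), whose product acts as a nucleotide exchange factor of HSP70, was at 287, 312 and 303 CPM in untreated HCT116 and at 122, 131 and 195 CPM with oxaliplatin (log2 fold change -0.93, SE 0.18, edgeR adjusted p = 0.00606). HSPB1 (chr7:76302673-76304295, plus strand) rose from 354, 336 and 385 CPM to 666, 665 and 572 CPM, 1.87-fold (log2 fold change 0.90, SE 0.13, edgeR adjusted p = 0.0019). Neither gene's groups overlapped. DNAJB1 (chr19:14514769-14560391, minus strand), BAG3 (chr10:119651380-119677819, plus strand) and HSPE1 (chr2:197500140-197503449, plus strand) did not pass, with log2 fold changes of 0.12, 0.17 and -0.33.

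Base composition moved with these results. Over 9466 expressed genes the log2 fold change to oxaliplatin in HCT116 rose by 0.49 for each 10 percentage points of GC in the transcript, and the 4 members that fell have GC contents of 39.6% (HSPH1) to 45.3% (HSPA8), while HSPB1 has 65.3%. With the GC trend of each library removed, HSPA8 (log2 fold change -1.40, adjusted p = 0.000866) and HSPD1 (-0.74, adjusted p = 0.0146) were still called, and HSPH1 (-0.18, adjusted p = 0.484), HSP90AA1 (-0.52, adjusted p = 0.154) and HSPB1 (0.45, adjusted p = 0.0583) were not. HSP90AA1 was also not called with all 24 samples in 1 fit (adjusted p = 0.248), with a replicate block (0.0768), or without HCT116 control replicate 1, 2 or 3 (0.0765, 0.0838 and 0.0565) or HCT116 oxaliplatin replicate 2 (0.0502).

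In HCT116 oxpl-R, none of the 10 genes passed the test with oxaliplatin, where 4.12% of 16805 genes were called. At an unadjusted p under 0.05 there were 2, and DESeq2 called 1, HSPE1 (log2 fold change -0.96, adjusted p = 0.0254). HSPE1 was called in 4 of 16 alternatives. The others were edgeR with a replicate block (adjusted p = 0.000508) and edgeR without HCT116 oxpl-R control replicate 3 (0.0309) or HCT116 oxpl-R oxaliplatin replicate 2 (0.00908). HSPE1 was at 201, 291 and 146 CPM untreated and at 85.8, 149 and 94.1 CPM with oxaliplatin, with overlapping groups (edgeR log2 fold change -0.94, SE 0.27, adjusted p = 0.0705). HSPH1 was at 112, 124 and 112 CPM and then at 84.7, 71.9 and 91.7 CPM, without overlap, but did not pass (log2 fold change -0.48, SE 0.18, adjusted p = 0.198). HSPB1 stood at 189, 169 and 173 CPM and at 189, 188 and 138 CPM.

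**Figure D2:**
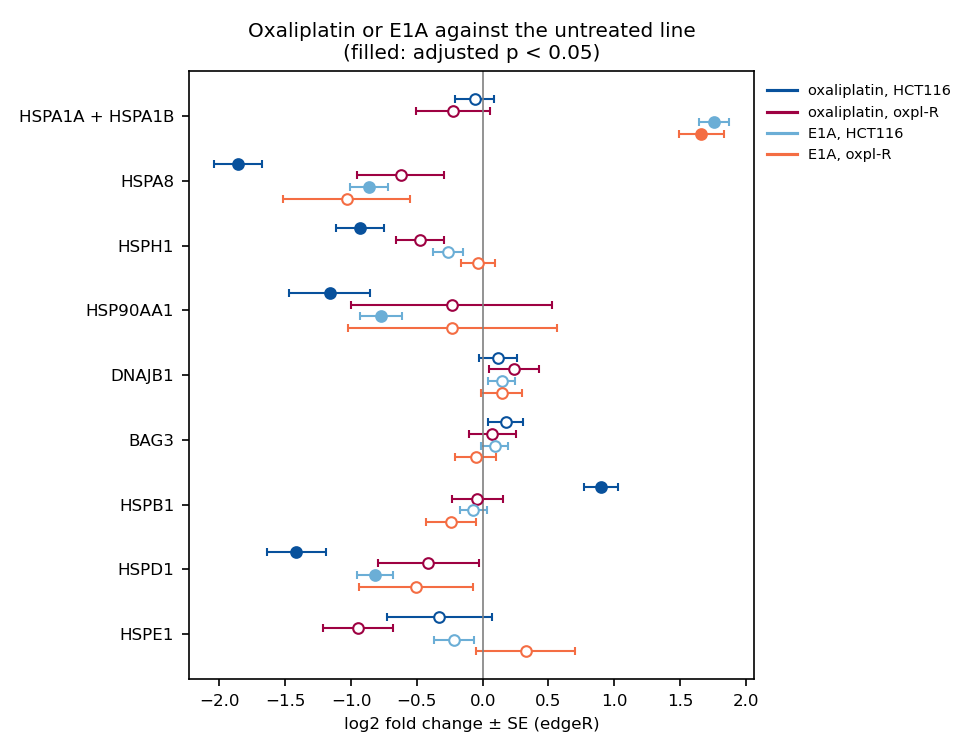
Log2 fold changes with their SE (edgeR, 3 samples against 3) of HSPA1A + HSPA1B and of the other 8 genes for oxaliplatin or E1A against the untreated cells of the same line, filled where the adjusted p was below 0.05. HSPA1A + HSPA1B is filled for E1A in both lines and open for oxaliplatin, where its values are -0.06 and -0.22, and no gene is filled for oxaliplatin in HCT116 oxpl-R.

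The difference of the oxaliplatin response between the lines was tested by the interaction term. HSPB1 was the 1 member that passed, where 2.44% of 17876 genes were called. Its rise in HCT116 (log2 fold change 0.90) stood against -0.04 (SE 0.19) in HCT116 oxpl-R, an interaction of -0.92 (SE 0.24, edgeR adjusted p = 0.0463). This call is close to the threshold. It was not made with all 24 samples in 1 fit (adjusted p = 0.0686), with a replicate block (0.0678) or with the GC trend removed (-0.55, adjusted p = 0.222). It was also lost without HCT116 control replicate 1, 2 or 3 (0.145, 0.168 and 0.0705), HCT116 oxaliplatin replicate 1 or 2 (0.123 and 0.0668), HCT116 oxpl-R control replicate 1, 2 or 3 (0.127, 0.0884 and 0.0653) or HCT116 oxpl-R oxaliplatin replicate 2 or 3 (0.0546 and 0.0746). HSPA8 and HSPD1 had interactions of 1.25 (SE 0.41) and 1.02 (SE 0.50) that did not pass (adjusted p = 0.122 and 0.328). A smaller fall of these genes in HCT116 oxpl-R was thus not shown by this test. The interaction of HSPA8 was called in 3 of 22 alternatives. These were DESeq2 (1.23, adjusted p = 0.0458) and edgeR without HCT116 oxaliplatin replicate 3 (adjusted p = 0.0497) or HCT116 oxpl-R control replicate 3 (0.0329).

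Between the untreated lines 6 of 10 members were called, 5 lower and 1 higher in HCT116 oxpl-R. The background was high, as 28.3% of 16715 genes were called, 14.2% lower and 14.1% higher. The members' median log2 fold change was -0.54, against 0.08 over all genes tested, and 9 of 10 values were negative. Over the 9507 expressed genes, a closer reference for abundant transcripts, the median was -0.06 and 44.3% were called. HSPH1 was at 287, 312 and 303 CPM in HCT116 and at 112, 124 and 112 CPM in HCT116 oxpl-R, 2.57-fold lower (log2 fold change -1.36, SE 0.11, edgeR adjusted p = 1.01e-06). HSPB1 was at 354, 336 and 385 CPM against 189, 169 and 173 CPM, 2.01-fold lower (log2 fold change -1.01, SE 0.11, edgeR adjusted p = 1.63e-05). The replicates of both genes lay close together in each line and far apart between the lines.

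The other untreated differences were smaller or less even between replicates. HSPA1A + HSPA1B was 1.56-fold lower in HCT116 oxpl-R (log2 fold change -0.64, SE 0.13, edgeR adjusted p = 0.00263). BAG3, whose product links HSP70 to small heat shock proteins and to autophagy, was at 149, 154 and 190 CPM in HCT116 and at 125, 118 and 120 CPM in HCT116 oxpl-R (log2 fold change -0.43, SE 0.11, edgeR adjusted p = 0.0118). DNAJB1, which stimulates the ATPase of HSP70, was at 216, 221 and 284 CPM against 320, 342 and 280 CPM, and its groups overlapped (log2 fold change 0.40, SE 0.13, edgeR adjusted p = 0.0332). HSPD1 was 1.97-fold lower in HCT116 oxpl-R (log2 fold change -0.98, SE 0.26, edgeR adjusted p = 0.0128), with samples at 556, 401 and 1027 CPM there. These 3 calls are the weaker ones. DNAJB1, BAG3 and HSPD1 were each lost with all 24 samples in 1 fit (adjusted p = 0.13, 0.0885 and 0.0921). DNAJB1 was lost with a replicate block (0.0987) and without HCT116 control replicate 1 or 2 or HCT116 oxpl-R control replicate 1 or 2 (0.159, 0.116, 0.0958 and 0.0575), BAG3 without HCT116 control replicate 3 (0.0527), and HSPD1 with DESeq2 (0.0753), with the filter on low counts (0.0577) and without HCT116 control replicate 2 or 3 or HCT116 oxpl-R control replicate 1 (0.055, 0.0638 and 0.0694).

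The neighbouring genes on the chromosome gave a local reference for the untreated difference. The 50 nearest expressed genes had a median log2 fold change of -0.26 around BAG3, -0.23 around HSPA1B and 0.26 around DNAJB1, each on the side of the member's own value. Relative to these medians BAG3 was at -0.17, HSPA1B at -0.42 and DNAJB1 at 0.14. HSPH1 and HSPB1 lay far from their neighbours, at -1.30 and -0.83 relative to local medians of -0.06 and -0.18. Copy number was not analysed here, and its part in the differences was not tested.

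HSPH1 and HSPB1 were lower in HCT116 oxpl-R under every treatment. With oxaliplatin, 20.7% of 16342 genes and 30.97% of the 9505 expressed ones were called between the lines. Of the 10 members 3 passed (6 without HCT116 oxpl-R oxaliplatin replicate 1). HSPB1 was 3.93-fold lower (log2 fold change -1.98, SE 0.24, edgeR adjusted p = 0.000115), HSPH1 1.92-fold lower (log2 fold change -0.94, SE 0.24, edgeR adjusted p = 0.0152), and HSPA8 2.15-fold higher (log2 fold change 1.11, SE 0.28, edgeR adjusted p = 0.0123). HSPA8 was at 1254, 833 and 1257 CPM in HCT116 oxpl-R and at 376, 530 and 561 CPM in HCT116, with no overlap. It was not called without HCT116 oxaliplatin replicate 1 (adjusted p = 0.0544) or with the GC trend removed (0.052). HSPH1 was not called without HCT116 oxpl-R oxaliplatin replicate 2 (0.0507). Over 9466 expressed genes the log2 fold change of this comparison moved by -0.37 for each 10 percentage points of GC. With that trend removed, HSPB1 was at -1.55 and HSPH1 at -1.52, both still called (edgeR adjusted p = 0.000582 and 0.000496). No pairing of the replicate numbers is stated, and same-numbered samples deviated together only weakly in this comparison (r = 0.15, 0.20 and 0.26). With the numbers as a block HSPA1B was called too (log2 fold change -0.95, edgeR adjusted p = 0.0203, against -0.85 and 0.0547 without).

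With E1A, 17.7% of 17205 genes were called between the lines, 7.1% lower and 10.6% higher in HCT116 oxpl-R, and 4 members were lower. Of the 9507 expressed genes 27.7% were called. Without HCT116 oxpl-R E1A replicate 3, 9 members were called. HSPH1 had a log2 fold change of -1.08 (SE 0.17), HSPB1 of -1.12 (SE 0.19), HSPA1A + HSPA1B of -0.68 (SE 0.17) and BAG3 of -0.51 (SE 0.16), with edgeR adjusted p of 0.00103, 0.00241, 0.0171 and 0.0397. The calls of HSPA1B and BAG3 were lost without HCT116 E1A replicate 1, 2 or 3 (adjusted p = 0.0533, 0.0858 and 0.0527 for HSPA1B, and 0.148, 0.185 and 0.0636 for BAG3), and that of BAG3 also without HCT116 oxpl-R E1A replicate 2 (0.0721) and with a replicate block (0.0521). With E1A + oxaliplatin, 18.5% of 16904 genes and 28.0% of the 9507 expressed ones were called, and 3 members passed (6 without HCT116 E1A + oxaliplatin replicate 1). HSPB1 was lower (log2 fold change -1.25, SE 0.20), HSPH1 was lower (-0.87, SE 0.21) and DNAJB1 was higher (0.61, SE 0.18), with edgeR adjusted p of 0.00045, 0.00846 and 0.0274. DNAJB1 was then at 250, 240 and 231 CPM in HCT116 and at 388, 369 and 343 CPM in HCT116 oxpl-R, with no overlap, but its call was lost without HCT116 E1A + oxaliplatin replicate 2 or 3 or HCT116 oxpl-R E1A + oxaliplatin replicate 1 or 2 (adjusted p = 0.112, 0.104, 0.13 and 0.11). With the GC trend removed under E1A + oxaliplatin, HSPB1 was at -0.98 and HSPH1 at -1.34. The 4 comparisons between lines use different samples.

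**Figure D3:**
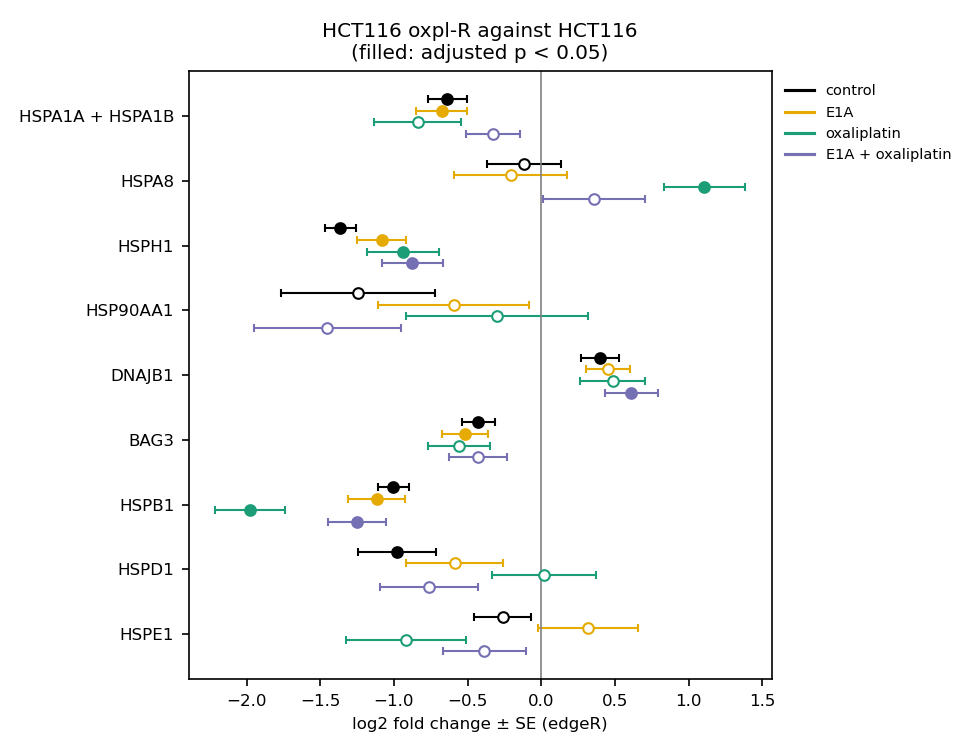
Log2 fold changes with their SE (edgeR) of HCT116 oxpl-R against HCT116 in the 4 treatments, filled where the adjusted p was below 0.05. HSPB1, from -1.01 to -1.98, and HSPH1, from -0.87 to -1.36, are filled in all 4, and DNAJB1 lies to the right of 0 in all 4 and is filled in 2. The GC trend was not removed.

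**Figure D4:**
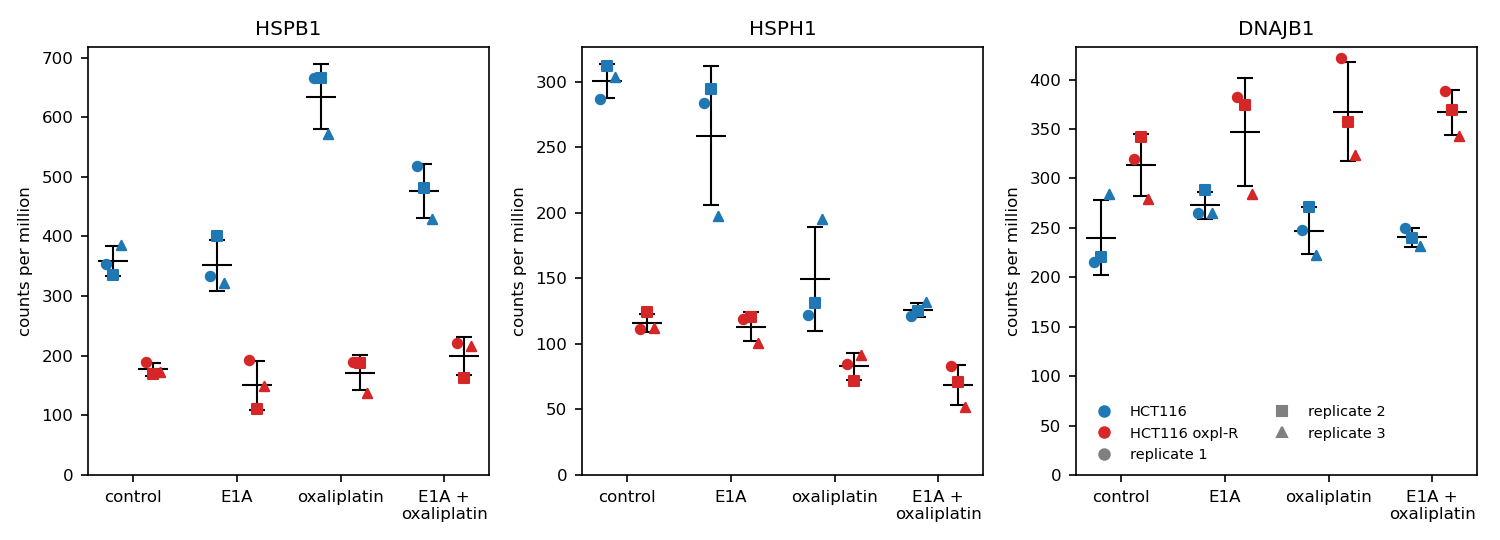
CPM of HSPB1, HSPH1 and DNAJB1 in each sample (points, shaped by replicate number, coloured by line), with the group mean and SD (n = 3) as bars. HSPB1 reaches 572 to 666 CPM in HCT116 with oxaliplatin and stays at 110 to 221 CPM in all HCT116 oxpl-R samples, and HSPH1 is at 124 CPM or less there.

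HSP90AA1, HSPD1, HSPA8 and HSPE1 differed more between replicates than most genes did. Their SDs of log2(CPM + 1) within groups were 1.12, 0.60, 0.60 and 0.63, above those of 99.8%, 94.6%, 94.6% and 95.9% of 9507 expressed genes, whose median was 0.24. In HCT116 oxpl-R, HSP90AA1 was at 251, 258 and 1531 CPM untreated, at 257, 253 and 1234 CPM with E1A, at 385, 112 and 1236 CPM with oxaliplatin and at 99.7, 137 and 558 CPM with both. Replicate 3 was the highest in each of these groups, by up to 11.1-fold over the lowest. HSPD1 was highest in replicate 3 of the same 4 groups, with 1027, 771, 638 and 497 CPM. Between the untreated lines HSP90AA1 had a log2 fold change of -1.25 (SE 0.52) that did not pass (edgeR adjusted p = 0.0963). It was called in 3 of 16 alternatives. These were without HCT116 oxpl-R control replicate 3 (-2.63, edgeR adjusted p = 5.35e-82) or replicate 2 (-0.86, 0.0341), and with a replicate block (-1.86, 0.0486). DNAJB1 and BAG3 were among the steadier genes, with SDs of 0.16 and 0.18.

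The deviations of HSP90AA1 from its group means went with those of HSPD1 (Pearson r = 0.94 over the 24 samples) and HSPA8 (r = 0.76), and not with those of HSPE1 (r = -0.37), although HSPE1 shares a promoter region with HSPD1. They also had an r above 0.8 with 519 of 9506 expressed genes, or 5.46%. The median GC content of these genes was 39.7%, against 49.5% for expressed genes. The slope of each library's deviations on GC content ran from -0.28 to 0.26 on the log2 scale per 10 percentage points, and the deviations of HSPA1A + HSPA1B followed it with r = 0.73 and those of HSP90AA1 with r = -0.50. These points share library and base composition, and the part of library preparation in the spread was not tested.

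**Figure D5:**
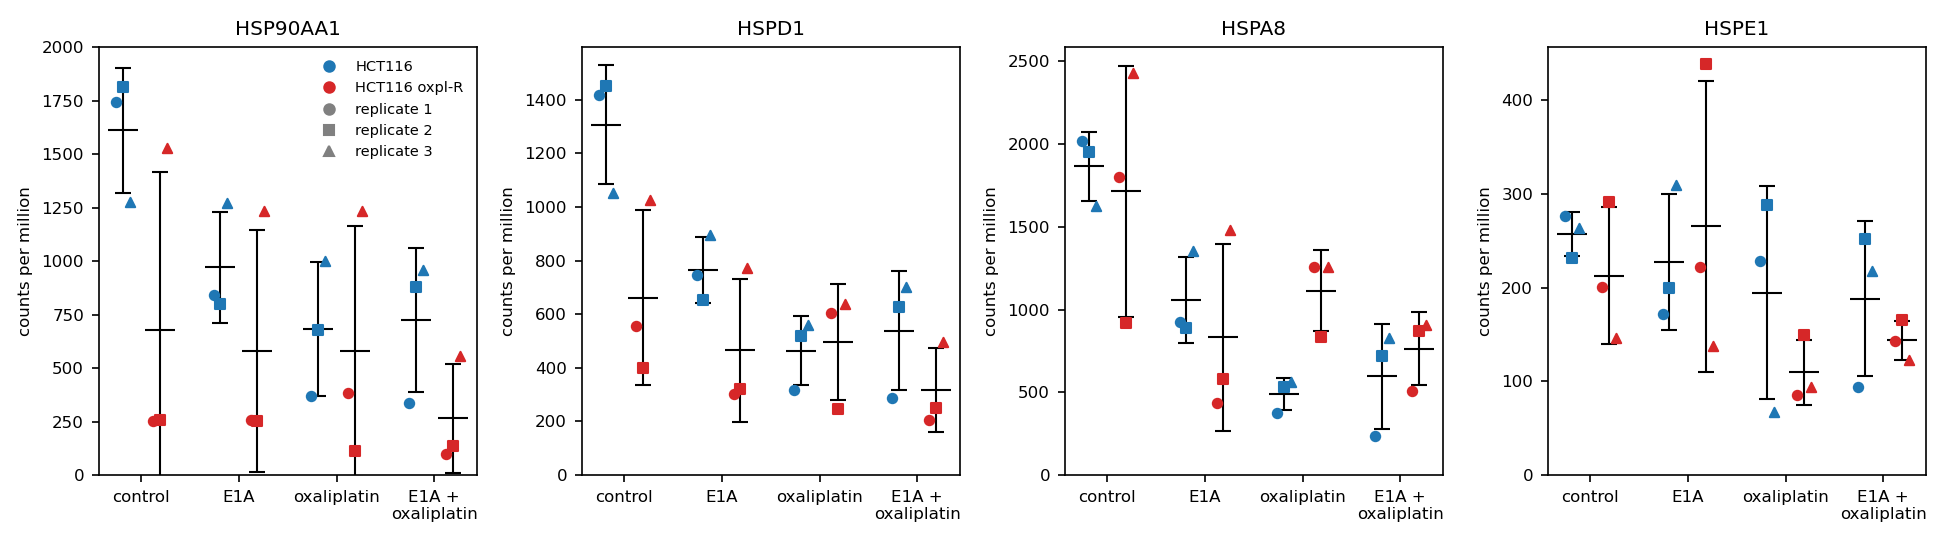
CPM of HSP90AA1, HSPD1, HSPA8 and HSPE1 in each sample (points, shaped by replicate number, coloured by line), with the group mean and SD (n = 3) as bars, which are cut at 0. In HCT116 oxpl-R, replicate 3 (triangles) of HSP90AA1 lies at 558 to 1531 CPM and the other replicates at 99.7 to 385 CPM.

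Per kilobase of the canonical transcript, HSPA8 was the most abundant of the 10 genes in both untreated lines, at 824 ± 92.3 CPM per kb in HCT116 and 757 ± 335 in HCT116 oxpl-R (SD, n = 3). In HCT116 it was followed by HSPD1 (582 ± 99.0), HSP90AA1 (499 ± 90.6), HSPE1 (462 ± 41.6) and HSPB1 (461 ± 32.4), which lay within each other's spread. HSPA1B (134 ± 24.4), DNAJB1 (107 ± 16.9), BAG3 (64.1 ± 8.74), HSPH1 (57.3 ± 2.44) and HSPA1A (2.32 ± 0.55) came below. The 10 genes together took 0.645% ± 0.056 of the normalised counts in untreated HCT116 and 0.335% ± 0.048 with oxaliplatin, with no overlap, and 0.422% ± 0.163 and 0.323% ± 0.091 in HCT116 oxpl-R, with overlap.

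Other chaperone genes were read from lists fixed by symbol, without a fit that removed the GC trend. In HCT116 with oxaliplatin, 13.1% of all genes tested were called higher and 10.2% lower, and 37.2% of the 9505 expressed genes were called. Of 17 chaperones of the endoplasmic reticulum 9 were called, all lower, among them HSP90B1 (GRP94, log2 fold change -1.40, SE 0.26), HSPA13 (-1.22, SE 0.26) and HSPA5 (BiP, -1.06, SE 0.12). Of 13 subunits of the cytosolic chaperonin CCT and of prefoldin tested, 7 were called, all lower, led by CCT2 (-1.42, SE 0.20), CCT6A (-1.30, SE 0.18) and CCT8 (-1.22, SE 0.18). The median log2 fold changes of these lists were -0.65 and -0.55, against 0.02 over all genes tested. Of 30 HSF1-inducible genes and cytosolic co-chaperones 5 were higher and 10 lower, with IER5 at 1.46 (SE 0.16), CHORDC1 at -1.06 (SE 0.20) and DEDD2 at 0.99 (SE 0.15). Of 11 mitochondrial chaperones and proteases 2 were higher and 3 lower, with HSPA9 (mortalin) at -1.06 (SE 0.26), GRPEL2 at -0.93 (SE 0.22) and the protease subunit CLPP at 0.85 (SE 0.15).

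The factor HSF1 itself rose with oxaliplatin in HCT116, from 146, 140 and 160 CPM to 243, 234 and 221 CPM (log2 fold change 0.72, SE 0.12, edgeR adjusted p = 0.00329), and was the 1 gene called of 5 heat shock factor genes. The GC trend was not removed in this fit. In HCT116 oxpl-R, where 4.12% of 16805 genes tested were called, none of the factors was. Of the other lists 1 gene was called, the co-chaperone DNAJB2 (log2 fold change 1.26, SE 0.25, edgeR adjusted p = 0.0118). The interaction of line and oxaliplatin called 2.44% of 17876 genes tested and 4.46% of the 9507 expressed ones. Of these lists it called SERPINH1 (-1.03, SE 0.25), HSPA5 (1.33, SE 0.26) and CLPP (-1.06, SE 0.25), 1 gene in each of 3 lists. These lists had 30, 17 and 11 genes tested.

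With E1A no gene of these lists was called in HCT116 oxpl-R, nor on top of oxaliplatin in either line. In HCT116, 2.91% of all genes tested were called higher and 6.59% lower, and 15.6% of the 9506 expressed genes were called. There the test called 4 lower and 1 higher of the 30 HSF1-inducible genes and co-chaperones, with HSPA14 (-0.72, SE 0.16), CHORDC1 (-0.68, SE 0.14) and DNAJA1 (-0.58, SE 0.13) moving most. It called 5 of 13 CCT and prefoldin genes, all lower, 4 of 11 mitochondrial genes, all lower, and HSPA13 of the 17 endoplasmic reticulum genes (-0.69, SE 0.19). No heat shock factor gene was called with E1A.

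Between the untreated lines, 14.1% of all genes tested were called higher and 14.2% lower, and 44.3% of the 9507 expressed genes were called. Genes of the lists were called in both directions, and the called counts were 10 of 30, 6 of 17, 4 of 11 and 7 of 13. HSP90AB1, the constitutive HSP90 gene, was at 4440 ± 286 CPM in HCT116 and 1939 ± 128 CPM in HCT116 oxpl-R (SD, n = 3; log2 fold change -1.19, SE 0.12, edgeR adjusted p = 1e-05). HSPA2 was lower (-1.23, SE 0.21) and the HSP40 gene DNAJB4 higher (0.94, SE 0.18), with 3 higher and 7 lower of 30 in that list. Of the endoplasmic reticulum list 4 were higher and 2 lower, with PDIA6 at -1.09 (SE 0.11), DNAJB9 at 0.94 (SE 0.20) and SIL1 at 0.92 (SE 0.13). Of the mitochondrial list 1 was higher, DNAJC19 (0.60, SE 0.13), and 3 lower, led by TRAP1, the mitochondrial HSP90 (-0.75, SE 0.11), and of the CCT and prefoldin list 3 were higher and 4 lower, with PFDN5 at 0.79 (SE 0.12), CCT6A at -0.74 (SE 0.25) and CCT4 at -0.72 (SE 0.10).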

How the data were processed

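RNA of 24 samples was sequenced by the authors, who trimmed reads with Trimmomatic, quantified them with Salmon 1.6.0 on GENCODE transcripts of GRCh38 with sequence and GC bias correction, and summarised genes with tximport. The authors deposited estimated counts, not normalised, for 33113 genes in alphabetical order up to SETP6. The values were rounded. A second deposited table, named TPM, was read as length-scaled estimated counts, since its columns sum to far more. It was used for later genes and for alternatives.

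Groups were tested by the quasi-likelihood method of edgeR 4.0.16 (R 4.3.3) with TMM scaling, all genes with a count in the samples compared, and Benjamini-Hochberg adjustment over all of them. Genes were called at an adjusted p below 0.05. Fits used the groups compared only. CPM values are TMM-scaled over the 24 samples. The 10 genes were all named, with up to 3 called genes of largest change per list and the 5 genes most alike. Members and lists were chosen with earlier results of these data known. Expressed genes had a mean of at least 50 counts, or of 10 in the 6 untreated samples for neighbours. Alternatives used limma 3.58.1, DESeq2 1.42.0, pseudocounts of 1 and 0.1 and a lowess GC trend (span 0.3). Tables and plots used Python 3.11.15, pandas 2.3.3, numpy 2.4.6 and matplotlib 3.10.9. The tests were first tested on simulated data. Some listed genes are not reported here. No 2 replicates agreed within counting noise. The replicate numbers carry no stated pairing. Deviations of same-numbered samples correlated above 0.1 for all 3 numbers only in the difference between the lines with oxaliplatin (r = 0.15, 0.20 and 0.26). In HCT116 oxpl-R, numbers 2 and 3 correlated more strongly, with r = 0.51 and 0.59 for oxaliplatin and 0.55 and 0.76 for E1A. Number 1 had r = 0.083 and 0.085 there. In HCT116 all 3 numbers had a negative r for oxaliplatin and for E1A. The precision of counts per gene is set by totals of 24838095 to 37927720 per sample.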

Additional observations from a re-analysis of the deposited data

Results flagged for a closer look

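The response of HSPB1 to oxaliplatin differed between the lines by the interaction term, -0.92 on the log2 scale (SE 0.24, edgeR adjusted p = 0.0463), with a rise in HCT116 and samples at 138 to 189 CPM against 169 to 189 CPM in HCT116 oxpl-R. The call was made in 9 of 22 alternatives, and the interaction stayed negative in all of them. Groups of 3 samples were not screened for outlying samples.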

How the results depend on the processing

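Of 30 calls of a member in a comparison, 13 were made in every alternative, none changed sign, and 413 of 486 repeats made the call again. The repeats include the fit with HSPA1A and HSPA1B summed. That fit leaves the other members all but unchanged, so for them it says little about stability. The numbers of members called, out of 10, moved as follows. With all 24 samples in 1 fit they were 3 for the untreated lines (6 in the reported fit), 6 for the lines with oxaliplatin (3), 2 for E1A in HCT116 (5), 2 for E1A in HCT116 oxpl-R (1), 2 for E1A on oxaliplatin in HCT116 oxpl-R (1) and 0 for the interaction with oxaliplatin (1). With a replicate block they were 5 for the lines with E1A + oxaliplatin (3), 1 for oxaliplatin in HCT116 oxpl-R (0), 2 for E1A in HCT116 (5), 0 for E1A on oxaliplatin in HCT116 (1), 2 for the same in HCT116 oxpl-R (1) and 0 for the interaction with oxaliplatin (1). DESeq2 gave 1 for oxaliplatin in HCT116 oxpl-R (0), 2 for E1A in HCT116 oxpl-R, 2 and 2 for E1A on oxaliplatin in the 2 lines (1 each) and 2 for the interaction with oxaliplatin (1). Limma gave 5 for the lines with oxaliplatin with either pseudocount, 2 or 3 for E1A in HCT116 with a pseudocount of 1 or 0.1, and 0 for E1A on oxaliplatin in HCT116 with either. With HSPA1A and HSPA1B summed and both counted, 2 were called in each of the last 3 E1A comparisons (1 each). With the GC trend removed, an alternative chosen after seeing the data, 2 were called for oxaliplatin in HCT116 (5) and 0 for the interaction (1).

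Leaving out 1 sample at a time gave 4 to 8 for the untreated lines, 2 to 6 with oxaliplatin, 2 to 9 with E1A, 2 to 6 with both, 4 to 5 for oxaliplatin in HCT116, 0 to 1 in HCT116 oxpl-R, 4 to 6 for E1A in HCT116, 0 to 2 in HCT116 oxpl-R, 0 to 1 and 2 to 4 on top of oxaliplatin in these lines, and 0 to 3 and 0 to 0 for the interactions with oxaliplatin and E1A. The 9 came without HCT116 oxpl-R E1A replicate 3, the 3 without HCT116 oxaliplatin replicate 3, and both counts of 4 on top of oxaliplatin without HCT116 oxpl-R oxaliplatin replicate 2 or E1A + oxaliplatin replicate 3. Uncalled values that changed sign were HSPA8 between the untreated lines (-0.43 to 0.18 over the left-out samples) and with E1A (-0.98 to 0.030), HSPA1A between the lines with oxaliplatin (-1.29 to 0.025), HSPE1 between the lines with E1A (-0.31 to 0.63), HSP90AA1 for E1A on oxaliplatin in HCT116 oxpl-R (-2.31 to 0.087), HSPH1 for the interaction with oxaliplatin (-0.18 with the GC trend removed) and HSPE1 between the untreated lines (0.025 with the chromosome median subtracted). The cause was not tested.

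Over all genes, the numbers called moved by over 1.5 times as follows. With all 24 samples in 1 fit they were 2747 for the untreated lines (4737), 1188 for oxaliplatin in HCT116 oxpl-R (692), 84 for E1A in HCT116 (1559), 44 in HCT116 oxpl-R (13), and 17 (4) and 270 (107) on top of oxaliplatin. With a replicate block they were 2000 for oxaliplatin in HCT116 (3759) and 1762 in HCT116 oxpl-R, 121 and 22 for E1A, and 0 and 217 on top of oxaliplatin. DESeq2 gave 1088 for oxaliplatin and 72 for E1A in HCT116 oxpl-R, 19 and 184 on top of oxaliplatin, and 1303 (437) and 6 (3) for the interactions with oxaliplatin and E1A. The filter on low counts gave 932 and 7 for E1A, 36 on top of oxaliplatin in HCT116 oxpl-R and 848 for the interaction with oxaliplatin. Limma gave 180 or 195 for E1A in HCT116, 53 or 55 on top of oxaliplatin in HCT116 oxpl-R, 755 or 735 and 1 for the interactions. The second table in edgeR gave 1008 for E1A in HCT116 and 666 and 1 for the interactions, and the GC trend removed gave 1648 for oxaliplatin in HCT116. The replicate block is given without a stated pairing. A call lost under it bears on how stable the call is, and is by itself no sign of a weaker effect.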
